A study of Mus musculus with 8 samples.

Results

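The set described here is the genes whose RNA could be measured in both of the study's mouse cell lines, followed through a gain of the transcription factor TCF-1 (gene Tcf7) in one line and its loss in the other. 3T3 is a fibroblast line and Scid.adh a thymic lymphoma line that resembles early T cell precursors of the DN3 stage. All 8 libraries of the series were used: 2 of normal 3T3 (labelled wild type and untreated), 2 of 3T3 with Tcf7 induced, 2 of Scid.adh with an empty vector (wild type below) and 2 of Scid.adh labelled Tcf7-/- (knockout below). Per the file headers, all 4 of the 3T3 libraries carried a Cas9 and inducible vector background and were taken at 72 hours, and only the induced ones carried doxycycline, so an effect of the drug and one of TCF-1 cannot be told apart. Whether both libraries of a group are independent cultures is not stated in the labels, and the p-values cover the spread between libraries, possibly a technical one.

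Of 30731 Ensembl gene identifiers in both count tables, 11038 passed the filter on low counts in both lines and are the genes compared. Library totals over genes ranged from 7740198 to 17523677 reads. A positive effect below always means higher RNA with more TCF-1: induced minus normal in 3T3, and wild type minus knockout in DN3. Effects are log2 fold changes with their standard error (SE). Levels (CPM) are counts scaled to the library's size after edgeR's TMM normalization, not to its plain total over genes. They are compared only within a gene. A gene was called where edgeR's quasi-likelihood test gave an adjusted p below 0.05 in that line's own fit. The difference between the 2 effects, 3T3 minus DN3, was tested in a joint fit of all 8 libraries.

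TCF-1 is an HMG-box factor that binds DNA, can recruit beta-catenin or Groucho corepressors, and opens chromatin at genes that thymic progenitors need to become T cells. Fibroblasts do not normally use it. Interferon-stimulated genes, by contrast, can be switched on in nearly every cell type through STAT and IRF factors that bind a response element in their promoters. Genes of sugar breakdown and of the response to low oxygen are likewise shared by most cells, and many carry sites for hypoxia-inducible factor.

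Each line kept its identity markers. The 8 DN3-type markers, Ptcra, Cd3e and Rag1 among them, summed to 9.94 to 12.3 CPM in the 3T3 libraries, 4253 to 4295 CPM in wild-type and 3340 to 3474 CPM in knockout DN3 libraries. The 8 fibroblast markers summed to 26063 to 29222 CPM in 3T3, 675 to 715 CPM in wild-type DN3 and 374 to 407 CPM in knockout DN3, mostly from Thy1, which T cells share (554 and 589 CPM in wild-type and 397 and 365 CPM in knockout DN3), and in wild type also from Pdgfrb (120 and 125 CPM). The 4 myeloid markers and the 4 B cell markers did not exceed a sum of 11.2 and 1.18 CPM in any library. The 4 NK markers summed to 8.66 to 8.86 CPM in wild-type and 17.8 to 21.5 CPM in knockout DN3. Nearly all of that was Eomes, at 8.56 and 8.65 CPM in wild-type and 20.4 and 17.1 CPM in knockout DN3. The DN3 groups also differed in complexity: 18041 and 18084 genes had a read in the wild-type libraries and 20406 and 20463 in the knockout libraries, which were less deep. The part of this difference in the results was not tested. As bulk RNA, the data cannot tell fewer cells with a transcript from less RNA per cell.

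3 genes show how unequal the gain and the loss were in size. Tcf7 itself (chr11:52252371-52283014, GRCm38, minus strand) stood at 14.5 and 14.6 CPM in normal 3T3 and at 946 and 972 CPM after induction, an effect of 6.04 (SE 0.05, edgeR adjusted p = 1.16e-51). In DN3 it stood at 1318 and 1325 CPM in wild type and still at 646 and 624 CPM in the libraries labelled knockout, an effect of 1.06 (SE 0.06, edgeR adjusted p = 5.06e-08). The groups did not overlap in either line. Scaling was done separately for each line, so the induced 3T3 level cannot be ranked against the DN3 levels. A gene-level count does not show whether the transcript that remained in the knockout encodes protein.

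Ifitm2, an interferon-induced membrane protein that blocks virus entry, rose with TCF-1 in both lines, but far more in DN3. It was at 94.5 and 98.1 CPM in normal and at 181 and 193 CPM in induced 3T3 (0.96, SE 0.05). In DN3 it was at 29.2 and 30.4 CPM in wild type, with 290 and 285 reads, and nearly absent from the knockout, with 1 and 6 reads (6.10, SE 0.32). The difference between the effects was -5.20 (SE 0.30, edgeR adjusted p = 3.2e-15). Ndrg1, a stress and hypoxia response gene, moved the other way in both lines. Its level went from 270 and 266 CPM to 105 and 111 CPM on induction (-1.31, SE 0.04), and it was at 1.81 and 1.92 CPM in wild-type DN3 against 37.3 and 37.5 CPM in knockout (-4.32, SE 0.19). Ifitm2 and Ndrg1 share exon bases with another gene, on the same strand and on the other strand respectively, so their reads could in part be their neighbours'.

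The promoters of the genes that carry the shared and the opposite responses are shown here so that the letters of known elements can be read beside each kind of response. Each window spans 250 bases before to 50 after a RefSeq transcription start (GRCm38.p6), read in the direction of transcription. The 4 genes first shown were called up with TCF-1 in both lines by edgeR. Capitals mark the core of the interferon-stimulated response element, GAAANNGAAA, on either strand with overlapping matches merged. Their windows are Ifitm2 at chr7:140955912-140956211 (minus strand), Gbp3 at chr3:142559794-142560093 (plus strand), Ifi211 at chr1:173912997-173913296 (minus strand) and Mndal at chr1:173880138-173880437 (minus strand).
Ifitm2: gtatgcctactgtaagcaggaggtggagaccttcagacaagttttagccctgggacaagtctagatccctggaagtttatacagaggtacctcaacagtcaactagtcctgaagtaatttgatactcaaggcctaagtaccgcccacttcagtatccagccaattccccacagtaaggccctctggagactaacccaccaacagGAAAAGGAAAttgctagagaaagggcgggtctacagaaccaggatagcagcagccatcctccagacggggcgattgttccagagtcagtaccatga
Gbp3: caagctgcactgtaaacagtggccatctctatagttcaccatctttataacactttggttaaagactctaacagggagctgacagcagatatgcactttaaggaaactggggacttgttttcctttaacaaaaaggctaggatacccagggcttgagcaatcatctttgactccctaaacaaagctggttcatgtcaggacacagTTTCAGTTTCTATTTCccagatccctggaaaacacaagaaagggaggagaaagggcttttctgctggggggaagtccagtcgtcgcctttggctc
Ifi211: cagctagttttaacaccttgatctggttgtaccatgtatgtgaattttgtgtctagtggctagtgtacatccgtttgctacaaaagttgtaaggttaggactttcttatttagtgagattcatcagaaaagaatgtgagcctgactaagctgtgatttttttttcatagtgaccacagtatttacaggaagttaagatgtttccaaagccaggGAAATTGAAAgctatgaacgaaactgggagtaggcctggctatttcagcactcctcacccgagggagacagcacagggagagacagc
Mndal: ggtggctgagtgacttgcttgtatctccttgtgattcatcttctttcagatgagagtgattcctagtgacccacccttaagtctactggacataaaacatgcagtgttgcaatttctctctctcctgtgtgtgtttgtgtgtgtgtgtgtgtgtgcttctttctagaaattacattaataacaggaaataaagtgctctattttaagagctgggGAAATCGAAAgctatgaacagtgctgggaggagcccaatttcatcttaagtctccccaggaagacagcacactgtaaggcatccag

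The next 4 are glycolysis and hypoxia genes, and capitals mark ACGTG, the core of the hypoxia response element, on either strand. Bnip3 at chr7:138909457-138909756 (minus strand) and Pgk1 at chrX:106186850-106187149 (plus strand) fell with TCF-1 in both lines, whereas Ldha at chr7:46845554-46845853 (plus strand) and Hk2 at chr6:82774405-82774704 (minus strand) fell in 3T3 and rose in DN3.
Bnip3: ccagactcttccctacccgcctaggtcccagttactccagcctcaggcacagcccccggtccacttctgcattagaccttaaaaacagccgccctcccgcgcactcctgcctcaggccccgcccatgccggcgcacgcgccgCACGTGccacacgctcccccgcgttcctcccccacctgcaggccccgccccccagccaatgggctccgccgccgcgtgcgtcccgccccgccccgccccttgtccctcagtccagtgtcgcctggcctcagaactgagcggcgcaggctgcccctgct
Pgk1: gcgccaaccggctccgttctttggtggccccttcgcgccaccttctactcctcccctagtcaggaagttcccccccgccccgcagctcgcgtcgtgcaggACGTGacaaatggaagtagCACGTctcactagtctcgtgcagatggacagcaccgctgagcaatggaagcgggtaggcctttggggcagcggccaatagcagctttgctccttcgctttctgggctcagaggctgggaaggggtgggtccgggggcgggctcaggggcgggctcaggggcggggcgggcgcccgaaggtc
Ldha: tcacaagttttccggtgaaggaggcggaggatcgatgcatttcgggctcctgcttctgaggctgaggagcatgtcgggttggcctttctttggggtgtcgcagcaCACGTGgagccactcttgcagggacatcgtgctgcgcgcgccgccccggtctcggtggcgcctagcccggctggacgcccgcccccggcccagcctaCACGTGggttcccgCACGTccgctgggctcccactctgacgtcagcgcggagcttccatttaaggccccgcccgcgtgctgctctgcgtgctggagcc
Hk2: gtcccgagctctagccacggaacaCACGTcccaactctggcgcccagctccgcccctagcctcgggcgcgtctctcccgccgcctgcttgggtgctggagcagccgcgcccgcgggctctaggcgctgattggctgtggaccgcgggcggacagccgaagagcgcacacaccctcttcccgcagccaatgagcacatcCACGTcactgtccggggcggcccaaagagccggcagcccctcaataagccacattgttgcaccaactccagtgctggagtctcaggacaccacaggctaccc

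Of the 6 interferon genes up in both lines, the 3 with a window (Bst2, Gbp3 and Ifitm2) all held GAAANNGAAA, as did 3 of 4 HIN-200 genes with a window and 1 of 7 antigen-presentation genes, against 3.44% of the 32851 windows in the table. Of glycolysis and hypoxia genes with a window, 5 of 6 down in both lines held ACGTG. So did 7 of 10 that moved oppositely, against 19.6% of all windows. The same short element was thus found beside genes of both behaviours. TGATGNAA, a core of the amino acid response element, was held by 0 of 8 stress response genes with a window, against 3.97% of all windows. CTTTGA, a core of the TCF/LEF site, was in 16.0% of all windows. Of genes called in both lines with a window, 0 of 7 TCF, LEF and Groucho genes and 0 of 2 Notch genes held it. A match is only a match of letters in this window. A gene with several windows was counted as holding a motif if any window did. The shares of all windows count each window singly, so such a gene had more chances to hold a motif. Windows matched 8580 of the 11038 genes by symbol, which is under 80%, so no share over whole gene classes is given.

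Across the transcriptome, genes moved with TCF-1 in the same direction in both lines somewhat more often than in opposite directions, but most called genes were called in 1 line only. Of the 11038 genes, induction in 3T3 raised 2411 (21.8%) and lowered 2156 (19.5%), and in DN3 1788 (16.2%) were higher and 1585 (14.4%) lower with TCF-1 present. Called in both lines were 1502 genes (13.6%): 527 up in both (4.77%), 338 down in both (3.06%), 287 up in 3T3 and down in DN3 (2.60%), and 350 down in 3T3 and up in DN3 (3.17%). A further 1597 rose and 1468 fell with a call in 3T3 alone, 911 and 960 with a call in DN3 alone, and 4600 were called in neither. DESeq2's test put 228, 136, 85 and 165 genes in the 4 shared classes, and without wild-type DN3 replicate 1 edgeR put 329, 192, 158 and 219 there. With upper-quartile scaling the DN3 calls leaned down, to 1215 up and 2455 down of all genes tested in that line, in place of 1899 and 1861. With an effect of at least 1 log2 unit in both lines, the 4 shared classes held 15, 12, 19 and 3 genes. Over all 11038 genes the effects were nearly unrelated (Pearson's r = 0.03, Spearman's rank correlation 0.04, across genes, which are not independent replicates).

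**Figure D1:**
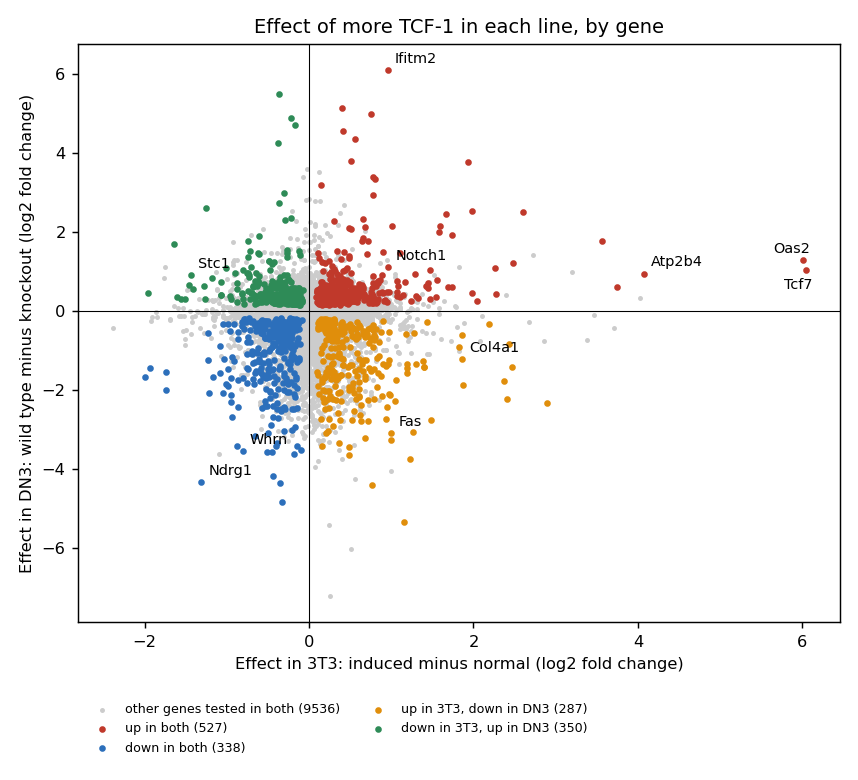
Each point is 1 of the 11038 genes tested in both lines, placed by its log2 fold change with TCF-1 in 3T3 (horizontal) and in DN3 (vertical), and coloured by its calls in the 2 lines. The cloud has no slope (r = 0.03), Ifitm2 lies far up the DN3 axis (6.10) and Tcf7 far along the 3T3 axis (6.04).

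How often a gene was called in DN3 depended on its level there. With the genes split into 3 classes of equal size by DN3 level, 25.7% of the low class were called down and 5.25% up with TCF-1, whereas in the high class 7.93% were down and 29.6% up. Shares were therefore read within these classes. Of genes that rose in 3T3, 8.69%, 17.4% and 36.9% also rose in DN3 in the low, middle and high class, beside 5.25%, 13.7% and 29.6% of all genes in each. They fell in DN3 at shares below the background in each class (23.3% beside 25.7%, 7.74% beside 9.40%, and 7.15% beside 7.93%). Of genes that fell in 3T3, 27.5%, 12.2% and 11.2% also fell in DN3, beside 25.7%, 9.40% and 7.93%. They rose in DN3 at about the background share in the low and middle class (5.27% beside 5.25%, and 13.5% beside 13.7%) and below it in the high class (24.8% beside 29.6%).

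Over all levels, 21.9% of the genes up in 3T3 were up in DN3 beside a background of 16.2%, and 11.9% were down beside 14.4%. By 3T3 level, genes up in DN3 rose in 3T3 in 24.9%, 29.3% and 31.0% of cases, beside 15.2%, 24.3% and 26.0% of all genes in the low, middle and high class, and fell there in 8.75%, 11.7% and 27.5%, beside 7.50%, 17.5% and 33.6%. Genes down in DN3 fell in 3T3 in 5.26%, 25.4% and 43.0%, so that in the low class the share was below its background of 7.50%. Taken from the DN3 side over all levels, 29.5% of genes up there were up in 3T3 beside 21.8%, and 21.3% of those down there were down in 3T3 beside 19.5%. Genes down in 3T3 were up in DN3 as often as all genes, at 16.2%. Over all levels, each share of matching direction lay above its background, with 15.7% beside 14.4% for genes down in 3T3. The shares from the DN3 side count the same 527 and 338 genes as those from the 3T3 side, so they add no separate agreement. These are descriptions of counts, and no test of the overlap was made.

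**Figure D2:**
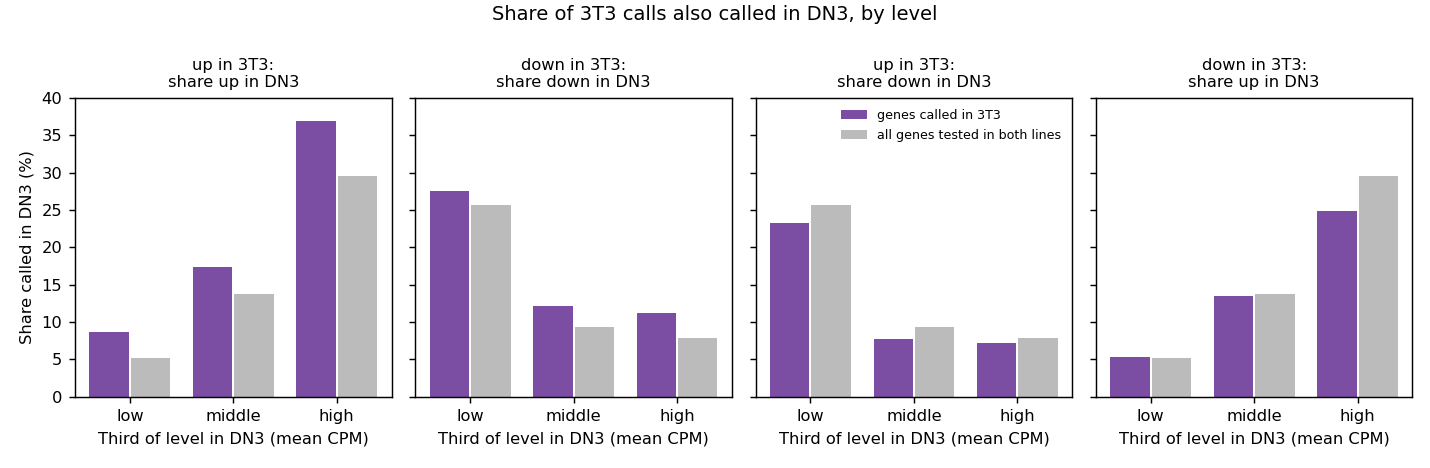
Bars give the percentage of the genes called up or down in 3T3 that were called up or down in DN3, within 3 classes of DN3 level, beside the same percentage over all genes of that class. Bars for the same direction exceed their background in every class, as for genes up in 3T3 and in the high class (36.9% beside 29.6%).

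The class up in both lines was led by immune defence genes, a Notch receptor and a pro-death factor. Gbp7, a guanylate-binding protein of the interferon response, was at 3.50 and 2.93 CPM in normal and 13.4 and 11.8 CPM in induced 3T3 (1.98, SE 0.15), and at 0.97 and 2.49 CPM in knockout and 8.26 and 12.3 CPM in wild-type DN3 (2.55, SE 0.36). H2-K1, a classical MHC class I heavy chain, was at 26.7 and 26.5 CPM against 53 and 53.7 CPM in 3T3 (1.00, SE 0.07) and at 2.43 and 1.90 CPM against 9.57 and 9.93 CPM in DN3 (2.17, SE 0.27). Both were named on the condition that the libraries of the compared groups did not overlap. Notch1, a receptor needed for commitment to the T cell fate, rose from a trace of 10 and 10.9 CPM to 22.2 and 18.3 CPM in 3T3 (0.96, SE 0.11). In DN3 it was at 679 and 793 CPM without TCF-1 and at 1633 and 1547 CPM with it (1.11, SE 0.07), and the effects did not differ by the test (difference -0.19, SE 0.13, edgeR adjusted p = 0.294).

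Bmf, a BH3-only protein that promotes cell death, also rose by like amounts (1.47, SE 0.10, in 3T3 and 1.04, SE 0.15, in DN3; difference 0.39, SE 0.18, edgeR adjusted p = 0.103). Atp2b4, a plasma membrane calcium pump, rose far more in 3T3, from 2.75 and 2.18 CPM to 42.4 and 40.4 CPM (4.07, SE 0.12), than in DN3 (0.96, SE 0.10). Thy1, a surface protein of both thymocytes and fibroblasts, had nearly the same effect in each line, 0.61 (SE 0.05) and 0.59 (SE 0.06). Among the 527 genes, the joint fit called a difference in size for 171 (32.4%), beside 36.0% of all genes tested in both lines.

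The class down in both lines was led by Ccng2, Whrn, Lonrf1, Frmd6, Dbp and Ndrg1. Ccng2, a cyclin that rises when growth stops, went from 178 and 176 CPM to 71.9 and 80.2 CPM on induction (-1.22, SE 0.05) and was at 26.5 and 24.1 CPM in knockout against 11.7 and 9.61 CPM in wild-type DN3 (-1.24, SE 0.16). The difference between its effects was -0.02 (SE 0.15). Whrn, a scaffold protein of hair cells, fell from 43.4 and 40.6 CPM to 24.9 and 22.9 CPM in 3T3 and stood at 2.02 and 2.35 CPM with TCF-1 against 20.9 and 30.1 CPM without it in DN3 (-0.81, SE 0.07, and -3.54, SE 0.25). Lonrf1 (-1.17 and -1.66), Frmd6 (-0.91 and -1.26) and Dbp, a clock output factor (-1.08 and -0.87), completed the leading 6. The DN3 call of Dbp was lost without wild-type replicate 2 (edgeR adjusted p = 0.0608) and without knockout replicate 1 (edgeR adjusted p = 0.0936). Of the 338 genes, 141 (41.7%) also differed in size.

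**Figure D3:**
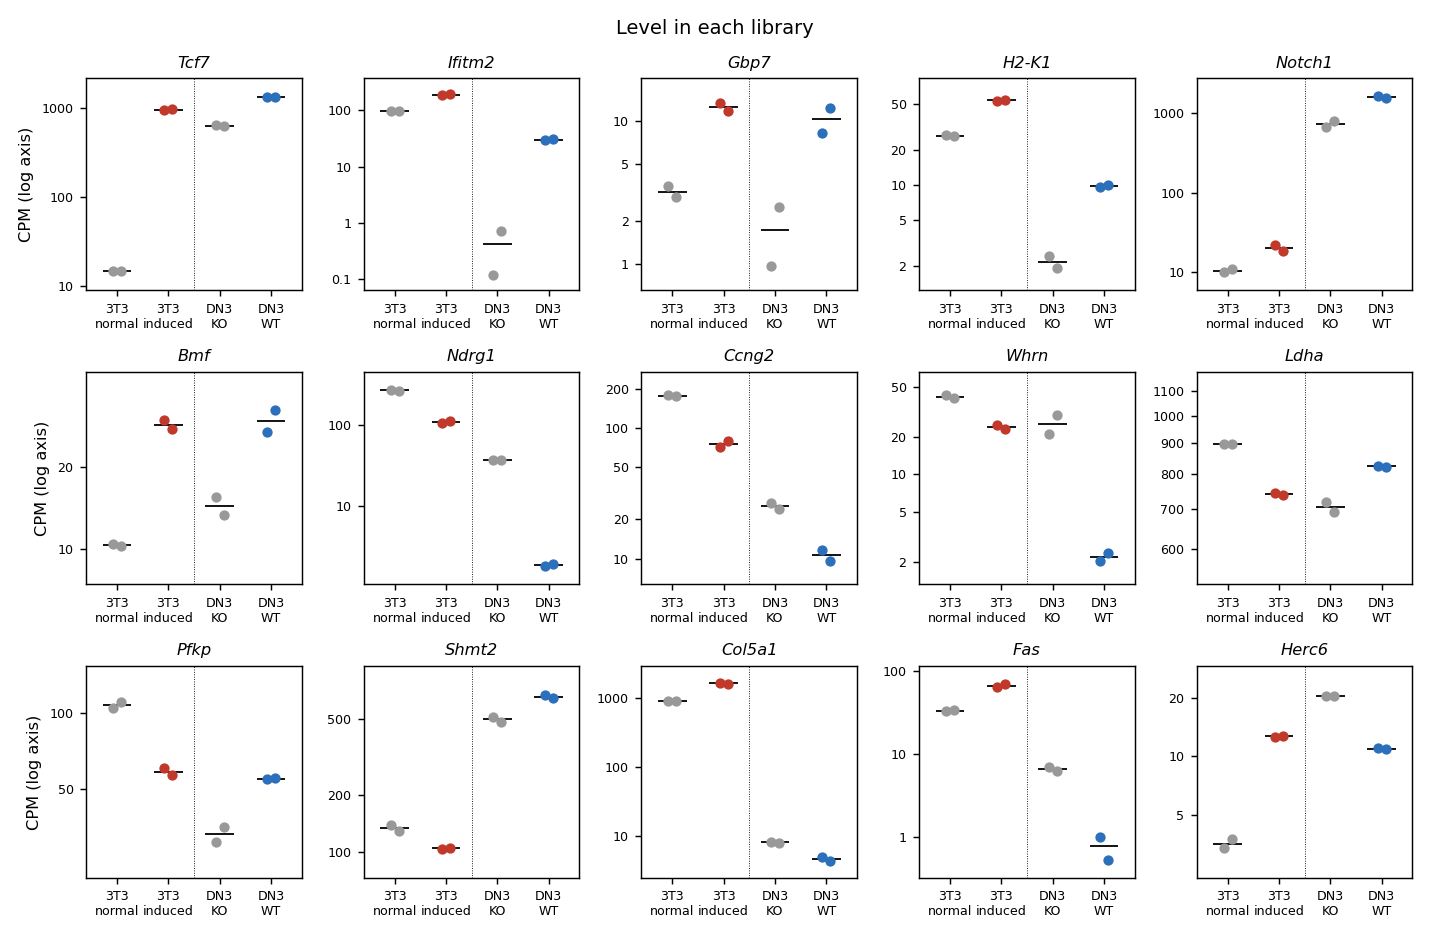
CPM on a log axis in each of the 8 libraries for 15 genes, with a line at each group's mean; each panel has its own scale. Grey points are the groups with less TCF-1 and coloured points those with more, and Herc6 shows an opposite pair, from 3.38 and 3.73 to 12.6 and 12.8 CPM in 3T3 but from 20.3 and 20.4 to 11 and 10.9 CPM in DN3.

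Antiviral and antigen-presentation genes rose in both lines in larger shares than all genes, although the 3T3 response was much wider. Of 22 interferon-stimulated genes tested in both, 20 rose and 1 fell in 3T3, beside 21.8% and 19.5% of all genes, whereas 6 rose and 1 fell in DN3, beside 16.2% and 14.4%. The 6 up in both, beside a background of 4.77%, included Gbp3, Ifitm2, Oas2 and Parp14. They were 6 of the 20 that rose in 3T3, while 21.9% of all genes up in 3T3 were up in DN3. DESeq2's test called 3 up in both. Gbp3 had effects of 1.74 (SE 0.15) in 3T3 and 1.93 (SE 0.42) in DN3. It had 27 and 6 reads in knockout against 81 and 66 in wild-type DN3, and its DN3 call was lost with DESeq2's test (adjusted p = 0.153). The median effect of the list was 1.21 in 3T3 and 0.31 in DN3, beside 0.02 and 0.01 over all genes. Oas2, which makes the messenger that activates RNase L, was at 0.31 and 0.23 CPM in normal and 18.7 and 16.7 CPM in induced 3T3 (6.0, SE 0.23), and at 2.31 and 2.61 CPM in knockout and 6.15 and 5.98 CPM in wild-type DN3 (1.3, SE 0.29). Irf9, a subunit of an interferon-activated transcription complex, rose in 3T3 (1.45, SE 0.09) and gave 0.12 (SE 0.22) in DN3, where the call was not made, and the difference of 1.28 passed the joint test (edgeR adjusted p = 6.25e-05).

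Not every antiviral gene followed. Mx1, a GTPase that traps influenza virus, rose in 3T3 from a trace of 0.13 and 0.17 CPM to 0.65 and 1.08 CPM (2.43, SE 0.61) but was lower with TCF-1 in DN3, at 16.7 and 16.8 CPM against 32.2 and 27.2 CPM (-0.83, SE 0.14). Mx1 was the only member of the interferon list called in this way, and the count was 0 without induced 3T3 replicate 2 and with DESeq2's test. Herc6, an enzyme that attaches the ubiquitin-like Isg15, did the same (1.83, SE 0.14, and -0.90, SE 0.16), as did the GTPase Ifi47 (2.41, SE 0.40, and -2.23, SE 0.38) and Slfn5 (2.47, SE 0.49, and -1.42, SE 0.43). By family, 3 of 5 guanylate-binding proteins, 3 of 5 immunity-related GTPases and 3 of 4 Schlafen genes tested in both lines were up in both, beside a background of 4.77%. Members of these families have near-identical copies, and the counting could split their reads.

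The HIN-200 genes, sensors of foreign DNA that lie side by side on chromosome 1 from Ifi204 (start 173747293) to Ifi202b (end 173982744), rose in both lines in 5 of 5 members tested, beside a background of 4.77%. Their effects were small in 3T3, from 0.41 (SE 0.08) for Ifi211 to 0.78 (SE 0.23) for Mndal, and large in DN3, from 2.12 (SE 0.11) for Ifi203 to 5.14 (SE 0.56) for Ifi211. Ifi202b was at 119 and 117 CPM in normal and 158 and 178 CPM in induced 3T3, and at 4.01 and 2.85 CPM in knockout against 44.5 and 52.4 CPM in wild-type DN3. Ifi204 was nearly absent from knockout DN3 at 0.24 and 0.24 CPM and reached 8.26 and 7.79 CPM with TCF-1. All 5 had a larger effect in DN3 by the joint test (edgeR adjusted p from 8.11e-16 for Ifi202b to 1.74e-05 for Mndal), the reverse of the interferon gene Oas2. Mndal and Ifi203 share exon bases on 1 strand, so their counts are not independent.

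In the MHC class I and peptide loading list, 7 of 18 genes were up in both lines beside a background of 4.77%, 14 rose and 1 fell in 3T3, and 7 rose and none fell in DN3 by edgeR. The 7 were the heavy chains H2-K1 and H2-D1, the loading factors Tapbp and Calr, the immunoproteasome subunit Psmb10, and the proteasome activator subunits Psme1 and Psme2. They were 7 of the 14 that rose in 3T3, while 21.9% of all genes up in 3T3 were up in DN3. Psmb10 rose from 8.76 and 8.79 CPM to 17.4 and 14.3 CPM in 3T3 (0.86, SE 0.12) and was at 21.0 and 21.5 CPM in knockout against 36.6 and 36.7 CPM in wild-type DN3 (0.79, SE 0.12). Psme1 had effects of 0.65 (SE 0.05) and 0.63 (SE 0.07). For these 2 genes the effects did not differ by the joint test (edgeR adjusted p = 0.939 for Psmb10 and 0.92 for Psme1), whereas H2-K1 and H2-D1 rose more in DN3 (differences of -1.21 and -0.97).

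Sugar metabolism and hypoxia genes fell in 3T3 and split in DN3. In 3T3, 30 of 32 members tested in both lines fell and none rose by edgeR, beside 19.5% of all genes down and 21.8% up. In DN3, 11 were higher and 8 lower with TCF-1, beside 16.2% and 14.4%. The 8 down in both, beside a background of 3.06%, were Bnip3, Bnip3l, Egln1, Kdm3a, Mxi1, Ndrg1, P4ha1 and Pgk1, most of which act outside glycolysis. The 11 that fell in 3T3 and rose in DN3, beside 3.17%, were Eno1, Ero1l, Gapdh, Gpi1, Hk1, Hk2, Ldha, Pfkfb3, Pfkp, Pkm and Slc2a1, of which all but Ero1l take up glucose, break it down or control that breakdown. The 8 and the 11 were among the 30 that fell in 3T3. Of all genes down in 3T3, 15.7% were down and 16.2% up in DN3. Without wild-type DN3 replicate 1 the count down in both was 5 and the opposite count 8, and with upper-quartile scaling they were 11 and 8.

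Bnip3, a mitophagy receptor, was at 271 and 271 CPM in normal and 197 and 220 CPM in induced 3T3 (-0.38, SE 0.04), and at 21.2 and 17.3 CPM in knockout and 4.74 and 6.94 CPM in wild-type DN3 (-1.72, SE 0.21). Pgk1, a glycolytic enzyme, fell by 0.31 (SE 0.04) and by 0.32 (SE 0.07) on the log2 scale. Hk2, an inducible hexokinase that commits glucose to breakdown, dropped in 3T3 from 587 and 591 CPM to 154 and 149 CPM (-1.96, SE 0.04) but was higher in wild-type DN3, at 172 and 175 CPM against 117 and 135 CPM (0.45, SE 0.08). Pfkp, a phosphofructokinase, went from 105 and 111 CPM to 60.4 and 57 CPM in 3T3 (-0.87, SE 0.05) and from 31.0 and 35.6 CPM in knockout to 54.7 and 55.3 CPM in wild-type DN3 (0.72, SE 0.11). Ldha, which makes lactate, moved less in either line (-0.27, SE 0.03, and 0.23, SE 0.06). Like all 350 genes that fell in 3T3 and rose in DN3, Hk2, Pfkp and Ldha had no overlap between groups in either line. With 2 libraries per group this is common, and held for 1084 of the 4600 genes called in neither line.

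**Figure D4:**
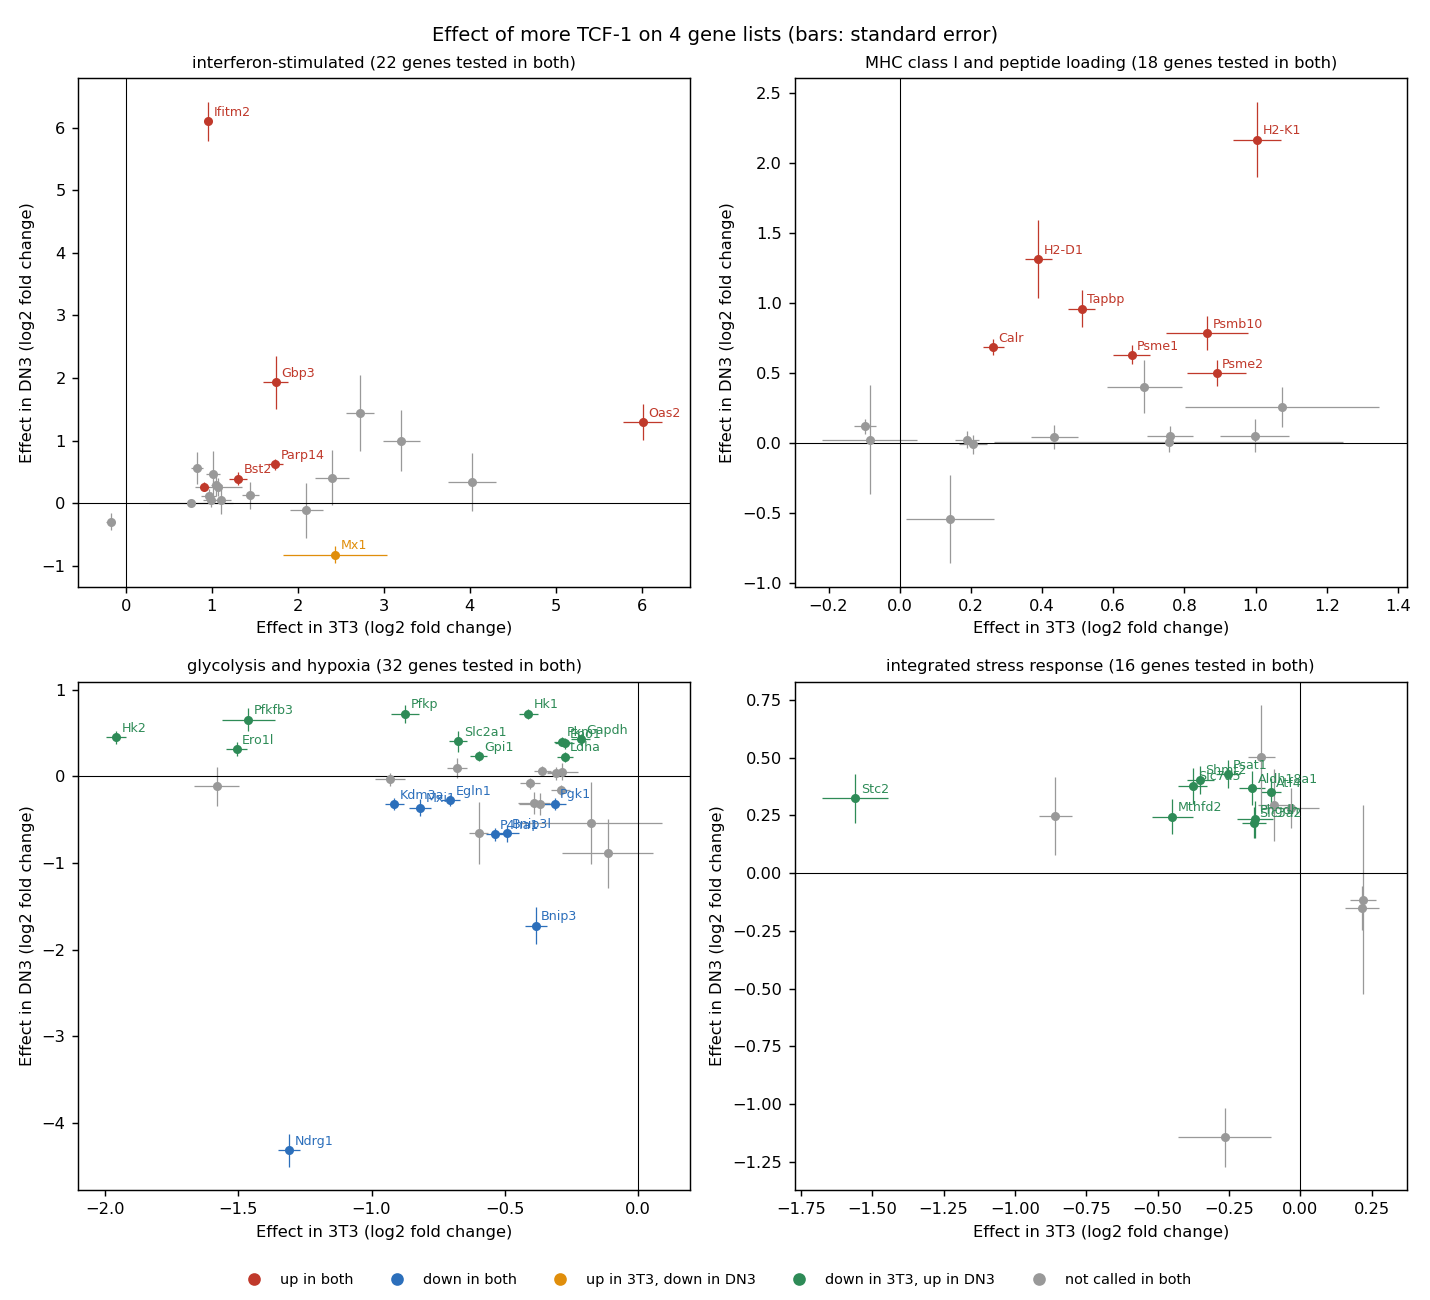
Log2 fold change with TCF-1 in 3T3 (horizontal) and DN3 (vertical) for the members of 4 gene lists tested in both lines, with standard errors as bars; genes called in both lines are coloured, and most are named. The interferon-stimulated genes stretch along the 3T3 axis (median 1.21), while the glycolysis and hypoxia genes lie at negative 3T3 values (median -0.45) on both sides of 0 in DN3.

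The integrated stress response, which supplies amino acids through the factor Atf4, moved mostly in opposite directions. Of 16 genes tested in both lines, 11 fell and 2 rose in 3T3 and 10 rose and 1 fell in DN3, beside 21.8% up and 19.5% down of all genes in 3T3 and 16.2% and 14.4% in DN3. The 9 that fell in 3T3 and rose in DN3, beside a background of 3.17%, were Aldh18a1, Atf4, Mthfd2, Phgdh, Psat1, Shmt2, Slc3a2, Slc7a5 and Stc2. They were 9 of the 11 that fell in 3T3, while 16.2% of all genes down in 3T3 were up in DN3. Slc7a5, an amino acid transporter, was at 95.0 and 95.5 CPM in normal and 74.5 and 71.9 CPM in induced 3T3 (-0.38, SE 0.05), and at 148 and 165 CPM in knockout and 214 and 192 CPM in wild-type DN3 (0.38, SE 0.08). Shmt2, a mitochondrial enzyme that makes glycine, had effects of -0.35 (SE 0.05) and 0.40 (SE 0.06). Slc7a5, Shmt2 and Atf4 lay in the high class of DN3 level, where 29.6% of all genes were up in DN3. With a loess correction against level, the count of opposite members was 4. Without wild-type DN3 replicate 1, the count of these opposite members was 4, as it was with DESeq2's test, and the DN3 call of Slc7a5 was lost (edgeR adjusted p = 0.0529).

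Of 24 cholesterol synthesis genes, 20 fell and 1 rose in 3T3, and 7 were lower and 3 higher with TCF-1 in DN3, beside 19.5% down and 21.8% up of all genes in 3T3 and 14.4% and 16.2% in DN3. The 6 down in both, beside a background of 3.06%, included Cyp51, Fdft1 and Sqle. They were 6 of the 20 that fell in 3T3, while 15.7% of all genes down in 3T3 were down in DN3. Cyp51, which demethylates lanosterol, was at 251 and 247 CPM in normal and 151 and 164 CPM in induced 3T3, and at 344 and 331 CPM in knockout and 271 and 251 CPM in wild-type DN3. Ebp, a sterol isomerase, was up in both (0.76, SE 0.08, and 0.59, SE 0.14). The count of 6 depended on a DN3 library: without wild-type DN3 replicate 2 it was 1.

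The oncogene Myc and the cyclin Ccnd2 fell in 3T3 and rose in DN3. Myc went from 194 and 198 CPM to 123 and 117 CPM on induction (-0.71, SE 0.04) and was at 351 and 371 CPM without and 502 and 494 CPM with TCF-1 in DN3 (0.46, SE 0.06). Ccnd2 had effects of -0.52 (SE 0.03) and 0.59 (SE 0.07). Of 33 cell cycle genes, 8 rose and 4 fell in 3T3, and 11 rose and none fell in DN3 by edgeR, beside 21.8% up and 19.5% down of all genes in 3T3 and 16.2% and 14.4% in DN3. Cdc6, Cdk6 and Tyms were up in both (3 of 33, beside 4.77%). All 3 lay in the high class of DN3 level, where 29.6% of all genes were up and 7.93% down in DN3. Among genes that fell in 3T3 and rose in DN3, ranked by the smaller of the 2 effects, those leading with at least 5 CPM were Eid3, Stc1, Dusp10, Pvr, Rab11fip1 and Pfkp. Stc1, a secreted calcium regulator, went from 22.4 and 24.1 CPM to 8.07 and 9.15 CPM in 3T3 (-1.44, SE 0.11) and from 27.6 and 30.5 CPM to 53.8 and 55.3 CPM with TCF-1 in DN3 (0.91, SE 0.11). Dusp10, a phosphatase of stress kinases, had effects of -1.18 (SE 0.06) and 0.84 (SE 0.10). Eid3 had few reads in DN3 (22 and 52 in knockout, 108 and 75 in wild type), and its call there was lost without wild-type replicate 1 (edgeR adjusted p = 0.0586) or knockout replicate 1 (edgeR adjusted p = 0.0652).

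Genes up in 3T3 and down in DN3 included extracellular matrix genes. Their baseline differs greatly, since fibroblasts secrete matrix and T cell precursors do not. Col5a1, a collagen chain, was at 898 and 885 CPM in normal and 1645 and 1574 CPM in induced 3T3 (0.85, SE 0.03), but at 8.27 and 7.95 CPM in knockout and 5.04 and 4.38 CPM in wild-type DN3 (-0.78, SE 0.24). Col4a1, a basement membrane collagen, rose from 461 and 446 CPM to 1678 and 1611 CPM in 3T3 (1.86, SE 0.03), while in DN3 it had 21 and 21 reads in knockout and 12 and 9 in wild type (-1.20, SE 0.39). The DN3 calls of both genes rest on few reads and were lost when wild-type DN3 replicate 1 was left out (edgeR adjusted p = 0.0512 for Col5a1 and 0.12 for Col4a1). Col7a1 (1.19 and -1.55) and the protease Mmp11 (1.19 and -1.44) had like effects. Of 20 collagen genes tested in both lines, 4 were up in 3T3 and down in DN3, beside a background of 2.60%, 3 were down in both, beside 3.06%, and 5 were called in neither.

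Fas, a death receptor, was a wide opposite pair: 33.1 and 33.7 CPM against 64.3 and 69.3 CPM in 3T3 (1.00, SE 0.06), and 7.05 and 6.29 CPM in knockout against 1.01 and 0.53 CPM in wild-type DN3 (-3.08, SE 0.37). The difference of 4.04 (SE 0.32) passed the joint test (edgeR adjusted p = 9.86e-12). Rab3d, a vesicle GTPase (0.83 and -1.56), and Frat2, a Wnt pathway factor that binds GSK3 (0.78 and -0.91), behaved alike. In this class 158 of 287 genes (55.1%) lay in the low class of DN3 level, where 25.7% of all genes were called down.

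Among TCF-1's own relatives and partners, calls were made in each direction in both lines. Of 15 TCF, LEF, Groucho and beta-catenin genes, 8 rose and 4 fell in 3T3, and 3 rose and 6 fell in DN3, beside 21.8% up and 19.5% down of all genes in 3T3 and 16.2% and 14.4% in DN3. Besides Tcf7, the corepressor Tle3 was up in both (0.15, SE 0.05, and 0.57, SE 0.07), Tcf7l2 and Tle1 were down in both, and Tcf7l1, Ctnnbip1 and Bcl9 rose in 3T3 and fell in DN3. Of all genes, 13.6% were called in both lines. Lef1, the closest relative of TCF-1, was at 12.9 and 10.4 CPM in normal and 8.01 and 9.80 CPM in induced 3T3 (-0.39, SE 0.13, edgeR adjusted p = 0.0123), and at 451 and 483 CPM in knockout and 488 and 482 CPM in wild-type DN3 (0.05, SE 0.06, edgeR adjusted p = 0.536). The call in 3T3 was lost without normal replicate 1 (edgeR adjusted p = 0.303) and without induced replicate 1 (edgeR adjusted p = 0.222). The difference between its effects was lost without the same libraries (edgeR adjusted p = 0.113 and 0.109). Tle1 fell by 0.30 (SE 0.06) and 1.00 (SE 0.26), the latter from 62 and 56 reads in knockout against 34 and 34 in wild type. Its DN3 call was lost with DESeq2's test (adjusted p = 0.0643), the loess correction and without wild-type replicate 1 (edgeR adjusted p = 0.0524). The difference between its effects was lost in 10 alternatives, among them DESeq2's test (adjusted p = 0.0885), limma-voom (adjusted p = 0.0552), no filter on low counts, and 5 of the 8 fits that left out a library.

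T cell genes could hardly be compared, because fibroblasts lack most of them. Of 30 T cell receptor signalling and surface genes, 24 were tested in DN3, 7 in 3T3 and 5 in both, and Thy1 alone was called up in both. Of 24 T lineage transcription factors tested in both, Tcf3, an E protein, was up in both (0.17, SE 0.05, and 0.18, SE 0.06). Cbfb, the partner of Runx factors, Bcl6 and Klf2 were down in both. Of all genes, 4.77% were up in both, 3.06% down in both, and 3.17% down in 3T3 and up in DN3. Klf2, a factor of resting lymphocytes, fell from 37.6 and 38.5 CPM to 20.5 and 18.9 CPM in 3T3 (-0.95, SE 0.08) and had 20 and 18 reads in knockout against 5 and 5 in wild-type DN3 (-2.11, SE 0.45). The DN3 call of Klf2 was lost with DESeq2's test (adjusted p = 0.0541) and the loess correction. That of Bcl6 was lost with DESeq2's test (adjusted p = 0.157), no filter on low counts, the loess correction, and without wild-type replicate 2 or knockout replicate 2 (edgeR adjusted p = 0.246 and 0.114). In the Notch list of 14 genes, 4 rose and 4 fell in 3T3 and 8 rose and none fell in DN3 by edgeR, beside 21.8% up and 19.5% down of all genes in 3T3 and 16.2% and 14.4% in DN3. Notch1 and Trib2 were up in both, and Dtx4 and Myc fell in 3T3 and rose in DN3. The DN3 call of Dtx4 (edgeR adjusted p = 0.0471) was lost without any 1 of the 4 DN3 libraries, with DESeq2's test (adjusted p = 0.222), limma-voom, upper-quartile scaling, a minimum mean of 1 CPM and a replicate block.

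Of 21 immediate early genes, which respond to growth signals within minutes, 12 fell and 3 rose in 3T3 and 7 fell and 3 rose in DN3, beside 19.5% down and 21.8% up of all genes in 3T3 and 14.4% and 16.2% in DN3. Egr1, Junb, Klf10 and Klf2 were down in both (4 of 21, beside 3.06%), and Klf6 and Myc fell in 3T3 and rose in DN3. Those down in both were 4 of the 12 that fell in 3T3, while 15.7% of all genes down in 3T3 were down in DN3. Among 15 p53 targets, Aen was up in both, Trp53inp1 and Zmat3 were down in both and Fas was opposite, beside 13.6% of all genes called in both. Zmat3, an RNA-binding growth inhibitor, had effects of -0.30 (SE 0.04) and -0.76 (SE 0.12). Of 23 cohesin, CTCF and architectural genes, the cohesin subunits Stag2 and Rad21 were called in both, beside 13.6% of all genes. Rad21 was at 289 and 283 CPM in normal and 257 and 263 CPM in induced 3T3 (-0.14, SE 0.04), and at 699 and 715 CPM in knockout and 820 and 806 CPM in wild-type DN3 (0.20, SE 0.06). Stag2 fell by 0.15 (SE 0.04) and 0.19 (SE 0.07). These small effects lost a call without any one of several libraries, wild-type DN3 replicate 1 among them (edgeR adjusted p = 0.271 for Rad21 and 0.429 for Stag2). Of 25 Polycomb, remodeller and DNA methylation genes, Hdac1 and Smarca4 were up in both, Bmi1 was down in both, and Cbx2 and Chd4 were opposite. The share of all genes called in both was 13.6%. The 3T3 call of Cbx2 was lost in the joint fit (edgeR adjusted p = 0.065) and with DESeq2's test (adjusted p = 0.158). It was also lost without normal replicate 2 or induced replicate 1, and the DN3 call of Cbx2 without wild-type replicate 2. Hdac1, a histone deacetylase, had effects of 0.30 (SE 0.06) and 0.38 (SE 0.08).

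In the other 6 lists, few members could be compared. Over all genes, 4.77% were up in both lines and 3.06% down in both. A further 2.60% rose in 3T3 and fell in DN3, and 3.17% did the reverse. Of 8 Wnt and beta-catenin targets, Tcf7 itself was up in both, Myc fell in 3T3 and rose in DN3, and Ccn4, a secreted matricellular protein, did the reverse. Ccn4 was at 74.8 and 75.4 CPM in normal and 96.7 and 104 CPM in induced 3T3 (0.41, SE 0.05), and at 96.5 and 107 CPM in knockout against 40.2 and 39.8 CPM in wild-type DN3 (-1.35, SE 0.09). S100a4 was up in both lines and Col1a1, Col4a1, Col5a1 and Pdgfra rose in 3T3 and fell in DN3 among 9 fibroblast matrix genes, where Pdgfrb did the reverse. Pdgfrb, a growth factor receptor of mesenchymal cells, was at 394 and 389 CPM in normal and 342 and 330 CPM in induced 3T3 (-0.22, SE 0.03), and at 4.38 and 3.80 CPM in knockout against 120 and 125 CPM in wild-type DN3 (4.90, SE 0.13). Among 8 contractile and YAP target genes Actn1, an actin crosslinker, was up in both (0.49, SE 0.03, and 0.68, SE 0.06), and Ajuba was down in both, with 14 and 10 reads in knockout against 2 and 3 in wild-type DN3. The DN3 call of Ajuba was lost with DESeq2's test (adjusted p = 0.103), the loess correction, and without wild-type replicate 1 or knockout replicate 1 (edgeR adjusted p = 0.0998 and 0.0576). Rora, a nuclear receptor of innate lymphoid cells, was down in both among 5 NK and innate lymphoid genes (-0.87, SE 0.06, and -0.70, SE 0.18), and its DN3 call was lost without wild-type replicate 2 (edgeR adjusted p = 0.069). None of 6 progenitor and myeloid factors was called in both lines by edgeR, and no B lineage gene was tested in both.

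Changes in 1 line with an effect under 0.25 log2 units in the other were found in each direction. In 3T3, Slc9a3r1, a membrane scaffold, rose from 9.32 and 9.82 CPM to 32.2 and 33.5 CPM (1.77, SE 0.09), and gave 0.14 (SE 0.07) in DN3. Gclm, which limits glutathione synthesis, rose by 1.18 (SE 0.06) against -0.23 (SE 0.09) in DN3, and Mios, a nutrient sensing factor, by 0.96 (SE 0.07) against -0.25 (SE 0.09). Sap30, a subunit of a histone deacetylase complex, fell from 111 and 107 CPM to 30.7 and 27.1 CPM (-1.91, SE 0.06), against -0.15 (SE 0.09) in DN3. Abi3 (-1.69, SE 0.08), Ankrd37 (-1.58, SE 0.08) and Noct (-1.51, SE 0.07) fell likewise in 3T3. These genes were chosen for a small effect in the other line, so that smallness is a description.

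In DN3, Bcr, a regulator of small GTPases, was at 42.8 and 45.3 CPM in wild type and 4.26 and 2.97 CPM in knockout (3.61, SE 0.18), while 3T3 held it at 130 and 131 CPM before and 127 and 130 CPM after induction (-0.03, SE 0.04). Arhgap31 (3.41, SE 0.29), the semaphorin receptor Plxnd1 (2.84, SE 0.17) and Ehbp1l1 (2.79, SE 0.23) were likewise much higher with TCF-1 in DN3, at effects from -0.07 to 0.07 in 3T3. Pik3c2a, a lipid kinase, was at 5.74 and 4.80 CPM in wild-type and 29.2 and 30.6 CPM in knockout DN3 (-2.50, SE 0.17), and at 175 and 182 CPM in normal and 173 and 183 CPM in induced 3T3 (-0.01, SE 0.04). Pcdhb16 (-1.72, SE 0.27), the NKG2D ligand H60b (-1.97, SE 0.25) and Ptms (-1.69, SE 0.13) were also lower with TCF-1 in DN3.

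A call in 1 line alone did not by itself show a difference between lines. The joint test called the difference for 539 of the 1597 genes up in 3T3 only (33.8%) and 802 of the 1468 down in 3T3 only (54.6%), and for 688 of 911 (75.5%) and 698 of 960 (72.7%) of those called up or down in DN3 only. It called 297 of the 4600 genes called in neither line (6.46%). Over all 15854 genes it tested, 4568 differed (28.8%), 2294 with the higher effect in 3T3 (14.5%) and 2274 with the lower (14.3%); with upper-quartile scaling these were 2847 and 1556. Outside the comparison, 4020 genes were tested in 3T3 only, of which 794 rose and 767 fell, and 878 in DN3 only, of which 108 rose and 272 fell.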

How the data were processed

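RNA of 8 libraries was sequenced paired-end with a stranded total RNA kit, per the labels' protocols, and the authors deposited 1 table of raw read counts per gene for each library. Per the submitters' processing notes, the tools included STAR 2.5.0a and HTSeq 0.6.1 and the build was GRCm38. For the annotation release, the strand setting and the counting program of the 3T3 libraries, nothing is given in the sources used here. Rows that name no gene were left out: in DN3 they held 21.3 to 25.8% of counts as reads in no gene and 2.20 to 2.44% as ambiguous reads. Libraries of a group differed by more than sampling noise (chi-square per degree of freedom 1.15 to 6.08), so none was merged.

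Each line was fitted with edgeR 4.0.16 (filterByExpr, TMM, robust quasi-likelihood, Benjamini-Hochberg over 18185 genes in 3T3 and 11941 in DN3), and the difference over all 8 libraries (15854 genes). Scripts were tested on simulated data. Alternatives used DESeq2 1.42.0, limma 3.58.1, other scalings and filters, a replicate block, and each library left out. Named genes were Tcf7, Lef1, Ifitm2 and Ndrg1; the 6 per shared class with the largest smaller effect among genes averaging 5 CPM or more in each line with no overlap between groups; the 4 per line and direction with the largest difference, with an effect under 0.25 in the other line; and up to 2 per list called in both lines. Other members of lists and families are named only to say which were counted. Family members, Herc6 apart, and further list members given with values were chosen after their values were seen. Members and the 20 gene lists were chosen with earlier results of these data known. Exon overlaps are from GENCODE on GRCm38, and promoters and sequences from RefSeq. Some list members are counted but not reported here by name.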

Additional observations from a re-analysis of the deposited data

Results flagged for a closer look

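Each gene below was picked out because its effect of TCF-1 differed between 3T3 and DN3 in the joint edgeR fit at an adjusted p below 0.05; values are the log2 effect in 3T3 minus that in DN3. Of the 67 genes named in the text, 50 did. Groups of 2 libraries are too small for a test of single outlying libraries.

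Among genes of TCF-1 and its partners, the difference was 4.94 for Tcf7, -0.49 for Lef1 and 0.67 for Tle1. The difference was lost for Lef1 without normal or induced 3T3 replicate 1 (edgeR adjusted p = 0.113 and 0.109), and for Tle1 with DESeq2's test (adjusted p = 0.0885), limma-voom (adjusted p = 0.0552) and without each of 5 single libraries. That of Ajuba was lost without wild-type DN3 replicate 1 or knockout replicate 1 (edgeR adjusted p = 0.0814 and 0.0687). Among genes up in both lines, it was -5.20 for Ifitm2, -1.21 for H2-K1, 3.07 for Atp2b4, 4.65 for Oas2 and -0.23 for Actn1. Among genes down in both lines, it was 2.97 for Ndrg1, 2.70 for Whrn, 2.09 for Ajuba, -0.33 for Cyp51 and 0.41 for Zmat3. The 3T3 effect was thus the larger one for Tcf7, Atp2b4, Oas2 and Cyp51 and the smaller one for the other genes that moved the same way in both lines. The difference of Cyp51 was lost with the loess correction (edgeR adjusted p = 0.319) and that of Actn1 with upper-quartile scaling (edgeR adjusted p = 0.176). That of Actn1 was also lost without normal 3T3 replicate 1 or induced 3T3 replicate 2. That of Zmat3 was lost without wild-type DN3 replicate 1 or knockout replicate 2.

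Among genes that rose in 3T3 and fell in DN3, the difference was 2.71 for Col7a1, 2.59 for Mmp11, 2.68 for Herc6, 2.35 for Rab3d, 1.65 for Frat2, 1.59 for Col5a1, 3.02 for Col4a1, 4.04 for Fas and 0.94 for Cbx2. Among genes that fell in 3T3 and rose in DN3, it was -2.15 for Eid3, -2.39 for Stc1, -2.06 for Dusp10, -1.86 for Pvr, -1.65 for Rab11fip1, -1.64 for Pfkp, -1.22 for Myc, -1.32 for Dtx4, -0.80 for Slc7a5, -0.80 for Shmt2, -1.15 for Ccnd2 and -0.38 for Rad21.

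Among genes called in 3T3 alone, the difference was 1.59 for Slc9a3r1, 1.37 for Gclm, 1.28 for Irf9, 1.16 for Mios, -1.80 for Sap30, -1.54 for Abi3, -1.51 for Ankrd37 and -1.45 for Noct. Among genes called in DN3 alone, it was -3.67 for Bcr, -3.52 for Arhgap31, -2.89 for Plxnd1, -2.77 for Ehbp1l1, 2.45 for Pik3c2a, 1.85 for Pcdhb16, 1.76 for H60b and 1.70 for Ptms. These genes were chosen for this difference.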

How the results depend on the processing

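Counts for genes up in both lines, down in both, up in 3T3 and down in DN3, and down in 3T3 and up in DN3 were 527, 338, 287 and 350. With DESeq2's test they were 228, 136, 85 and 165, and with a test against a 1.5-fold change 17, 12, 14 and 3. With upper-quartile scaling the last count was 206, DN3 gave 1215 up and 2455 down in place of 1899 and 1861, and the joint test gave 2847 higher and 1556 lower in 3T3 in place of 2294 and 2274. DESeq2's test called 1977 up and 2035 down in 3T3, 1080 and 880 in DN3, and 1284 differences higher in 3T3. The 1.5-fold test called 480 and 437 in 3T3, 159 and 565 in DN3, and 816 and 333 differences. Leaving out 1 library gave 329 to 646 genes up in both, 192 to 390 down in both, 158 to 301 up in 3T3 and down in DN3, and 216 to 513 down in 3T3 and up in DN3. It gave 2344 to 3391 up and 2409 to 3418 down in 3T3, 1162 to 2321 up and 1059 to 1911 down in DN3, and 1620 to 2271 higher and 1798 to 2623 lower differences. Without wild-type DN3 replicate 1 the 4 shared counts were 329, 192, 158 and 219, and without wild-type replicate 2 they were 356, 216, 176 and 216. The lone library left in a group is assumed to vary like the others. The highest of the 4 shared counts came without a knockout library or an induced 3T3 library. Within each setting the share of genes up in 3T3 that were up in DN3 exceeded its background, as in the 1.5-fold test (8.25% beside 1.11%) and upper-quartile scaling (15.1% beside 10.2%). Opposite moves also exceeded theirs in some settings. Up in 3T3 and down in DN3 did so in the 1.5-fold test (6.80% beside 3.91%). Down in 3T3 and up in DN3 did so with DESeq2's test (11.5% beside 9.20%) and no filter (14.6% beside 10.1%). The joint fit (18.3% beside 17.2%) and further settings gave the same. Without knockout DN3 replicate 2, this opposite share lay about as far above its background as the share of genes up in 3T3 that were up in DN3. A loess correction against level turned the difference of Actn1 to 0.00092 and that of Stag2 to 0.22. Of 3550 alternative values for the named genes, 142 lost and 24 gained a call. The replicate numbers do not pair the libraries (correlation of deviations 0.01 in 3T3 and 0.0015 in DN3); with a replicate block the shared counts were 593, 390, 355 and 403, the 3T3 counts 3633 and 3577, the DN3 counts 2010 and 2028, and the differences 2218 and 2247. The DN3 libraries are the shallower ones, which limits genes of a few CPM.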
